A study of Mus musculus with 36 samples.

Results

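Collagen genes were taken as the protein-coding genes whose symbol is Col, a number, the letter a and a number, with a mean over all libraries of at least 0.5 CPM (counts scaled to the library's total). The deposited table held 44 such symbols among 54532 gene identifiers, and 43 of them were members. Of these, 11 encode chains of fibrillar collagens, 8 encode basement membrane collagens (6 chains of type IV and the multiplexins Col15a1 and Col18a1), and 24 encode other types. All 43 were among the 18438 genes with enough reads to be tested. The lowest member was Col9a1, a fibril-associated chain of cartilage, at 0.762 CPM, and the symbol left out was Col10a1, a network-forming chain of growth plate cartilage, at 0.209 CPM.

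Collagens are extracellular proteins built as trimers of alpha chains, which may be identical or encoded by different genes. Types 1, 2 and 3 make up the bulk of fibrils in connective tissue, types 5 and 11 sit inside such fibrils and set their width, and type IV forms the meshwork of basement membranes. In the brain, fibrillar collagens are known mainly from the meninges and the walls of larger vessels, and type IV collagen from the basement membranes of capillaries and of the glia limitans, while some transmembrane and fibril-associated types are made by neurons.

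The study sequenced total RNA from whole brains of WT C57BL/6 mice at day 19, the peak of experimental autoimmune encephalomyelitis (EAE), a mouse model of inflammatory demyelination. In all 3 EAE groups disease was induced with MOG35-55, a myelin oligodendrocyte glycoprotein peptide, emulsified in complete Freund's adjuvant, and with pertussis toxin. EAE mice received no gavage (untreated EAE, n = 9), daily gavage of corn oil (vehicle EAE, n = 9) or daily gavage of farnesol, a plant isoprenoid alcohol, in corn oil at 100 mg/kg/day (farnesol EAE, n = 10), and 8 naive mice served as healthy controls. The labels name no group given adjuvant and toxin without the peptide, and give no sex, age, clinical score or first day of gavage. The comparisons of EAE with naive brains therefore hold the peptide, the adjuvant and the toxin together, and the comparison of farnesol with vehicle EAE is the one that differs, by its labels, in farnesol alone.

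Libraries held 14.71 to 24.21 M counts. They fell into 2 sets by the level of an annotated ribosomal RNA gene, at 1301 to 2816 CPM in 21 libraries (set 1) and 5157 to 17624 CPM in 15 (set 2), for which the labels give no name. Set 1 held all untreated and vehicle EAE libraries and farnesol EAE replicates 1 to 3, and set 2 held farnesol EAE replicates 4 to 10 and all naive libraries, so for untreated and vehicle EAE the difference from naive and the difference between sets cannot be told apart. Libraries of untreated EAE replicate 3, farnesol EAE replicate 2 and naive replicate 4 were low in cerebellar transcripts, and 8 libraries (untreated EAE replicates 1 to 5, vehicle EAE replicates 3 to 5) held more than 1 CPM of Sbp, the gene of a prostate spermine-binding protein. No pair of libraries agreed within sampling noise. Markers of brain cells were high in all libraries, with summed levels of at least 4738 CPM for 6 neuronal genes and 3640 CPM for 5 myelin genes.

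Between 17 and 20 of the 43 collagen genes were higher in each EAE group than in naive brain. The members that rose were mainly the minor fibrillar chains of types 5, 11, 24 and 27, the type IV pair Col4a1 and Col4a2, and a few fibril-associated and anchoring collagens. The main chains of connective tissue, Col1a1, Col1a2, Col2a1 and Col3a1, did not pass the test in any of the 3 comparisons. In untreated EAE 17 of 43 members rose (39.5%, where 13.6% of all tested genes rose) and 0 fell (11.3% of all tested genes). In vehicle EAE 20 rose (46.5%, against 16.3% of all tested genes) and 0 fell (15.2%), and in farnesol EAE 20 rose (46.5%, against 17.9%) and 0 fell (16.3%). DESeq2 also called 0 lower, and at an unadjusted edgeR p below 0.05 the lower members were 1 (Col25a1), 0 and 0. The median log2 change of the 43 members was 0.32 in untreated, 0.36 in vehicle and 0.36 in farnesol EAE, and that of all tested genes was -0.01, 0.00 and 0.01. The 3 comparisons share the same 8 naive libraries, so each comparison's values are given side by side and their likeness is not a result. A gene is said to rise or fall where edgeR's quasi-likelihood test, adjusted by Benjamini-Hochberg over all tested genes, gave p below 0.05. Changes are differences on the log2 scale with their standard error (SE), and in whole brain more cells of a type and more RNA per cell cannot be told apart.

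When the fit also took account of library set, whose effect is estimated from the farnesol libraries alone, 1 member rose in untreated EAE (Col27a1, by 1.33, where 0.542% of all genes in that fit rose). In vehicle EAE 2 members rose (Col18a1, by 1.16, and Col27a1, by 1.52, where 1.96% of all genes rose), and 15 rose in farnesol EAE (13.6% of all genes). Farnesol EAE replicate 2, in set 1 and low in cerebellar transcripts, held 9.85 CPM of Col27a1 and 8.97 CPM of Col18a1. Replicates 1 and 3 of that group, also in set 1, held 17.4 and 16.8 CPM of Col27a1 and 31.6 and 22.7 CPM of Col18a1. The fit with library set was not repeated without replicate 2. Without the 8 libraries holding Sbp, 11 members rose in untreated EAE (11% of all genes) and 1, Col25a1, fell by 0.33 (7.71% of all genes). In vehicle EAE 17 rose without them (13.1% of all genes).

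**Figure D1:**
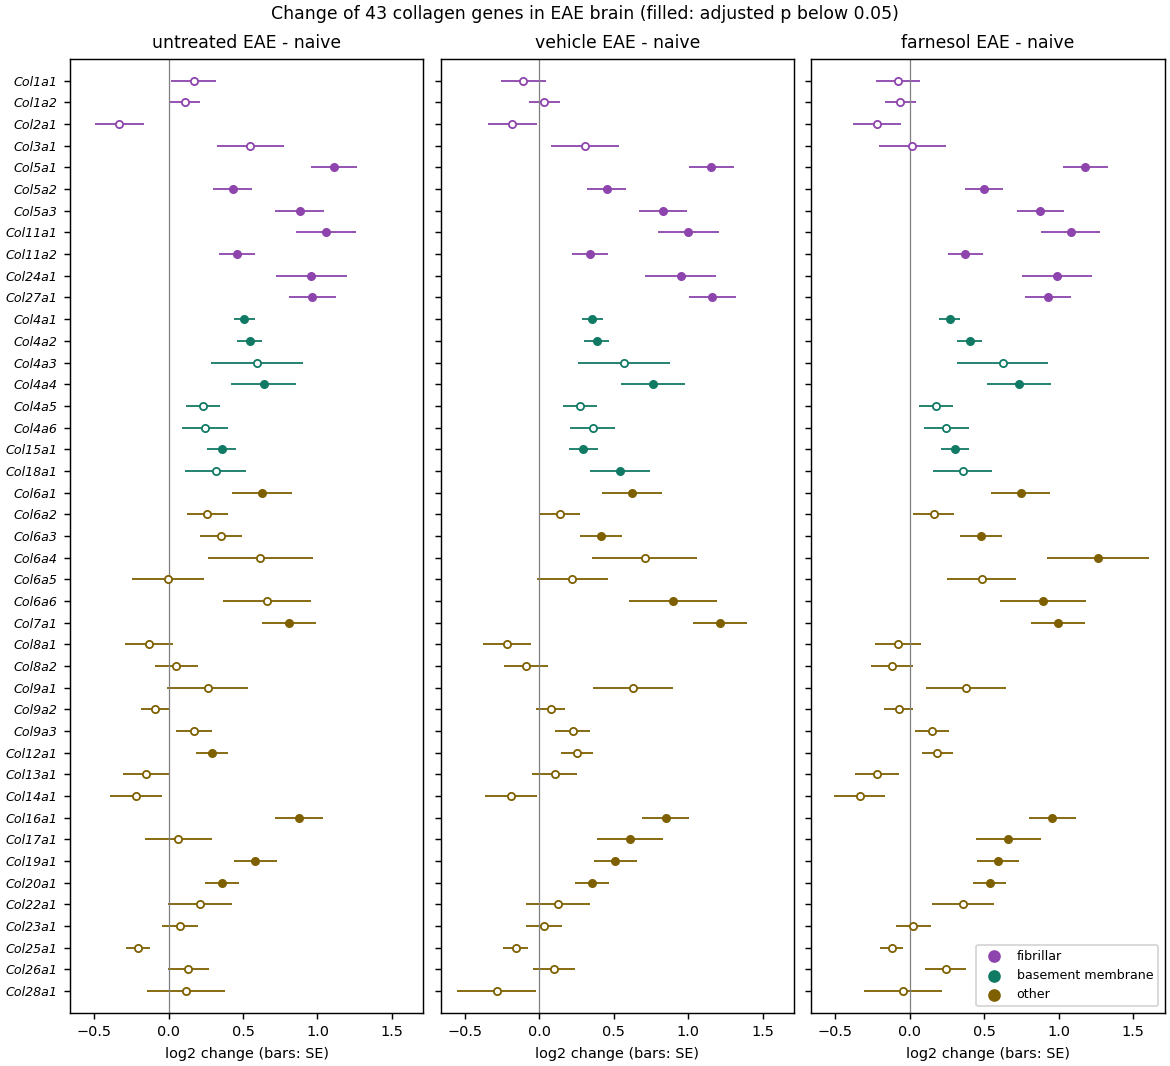
Log2 change of each of the 43 collagen genes (rows) in untreated, vehicle and farnesol EAE against naive brain (panels), with points for the estimate, bars for the SE and filled points for an adjusted p below 0.05. In all 3 panels Col5a1 lies beyond 1 on the log2 scale and every filled point is to the right of 0.

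By class, 7 of 11 fibrillar members rose in each of the 3 comparisons, and their 11 levels summed to 99.6 to 115 CPM in naive brains, 125 to 203 in untreated EAE, 128 to 189 in vehicle EAE and 132 to 177 in farnesol EAE. Of the 8 basement membrane members, 4 rose in untreated, 5 in vehicle and 4 in farnesol EAE, and their sums were 112 to 126 CPM in naive brains and 141 to 207, 149.9 to 177 and 142 to 172 in the EAE groups in the same order. Neither class sum overlapped between any EAE group and the naive group. Of the 24 other members, 6, 8 and 9 rose, and their sums, 182 to 235 CPM in naive brains against 209 to 329, 226 to 286 and 225 to 321, overlapped with naive in all 3 comparisons. Median log2 changes in untreated, vehicle and farnesol EAE were 0.55, 0.45 and 0.50 for fibrillar, 0.43, 0.37 and 0.33 for basement membrane and 0.19, 0.22 and 0.30 for other members. Among all tested genes, 13.6, 16.3 and 17.9% rose in the same order, and 3.53, 6.37 and 4.6% lay, as single genes, wholly above naive. For untreated and vehicle EAE the class differences from naive cannot be told apart from library set.

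Of the fibrillar genes that rose, Col5a1 encodes the alpha-1 chain of type 5 collagen, a regulator of fibril assembly (ENSMUSG00000026837, chr2:27886425-28039514, GRCm38). It was at 7.60 to 13.3 CPM in naive brains (median 11.6). In EAE, Col5a1 was at 15.2 to 35.4 (median 22.9) in the untreated, 17.7 to 39.2 (median 24.4) in the vehicle and 18.9 to 31.5 (median 26.2) in the farnesol group. Every EAE library was above every naive library, and the log2 changes were 1.11 ± 0.15, 1.16 ± 0.15 and 1.18 ± 0.15 in untreated, vehicle and farnesol EAE (adjusted p = 3.17e-06, 8.44e-07 and 5.42e-07, edgeR). Genes whose EAE libraries all lay above all naive libraries made up 4 of 43 members in untreated EAE (3.53% of all tested genes), 9 in vehicle EAE (6.37%) and 5 in farnesol EAE (4.6%). Col5a3, the gene of a further type 5 chain (ENSMUSG00000004098, chr9:20770050-20815067), was at 2.49995 to 4.49 CPM in naive brains (median 2.87). In EAE, Col5a3 was at 4.15 to 9.01 (median 5.81) in the untreated, 4.94 to 7.66 (median 5.72) in the vehicle and 3.81 to 8.56 (median 6.18) in the farnesol group. All vehicle EAE libraries, 7 of 9 untreated and 8 of 10 farnesol EAE libraries exceeded the highest naive library, with changes of 0.88 ± 0.16, 0.83 ± 0.16 and 0.88 ± 0.16 (adjusted p = 0.000119, 0.000156 and 6.82e-05). Col5a2, which encodes the chain that pairs with Col5a1 in the common form of type 5, rose less, by 0.43 ± 0.13, 0.45 ± 0.13 and 0.50 ± 0.13, and its EAE and naive libraries overlapped in all 3 comparisons.

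Col11a1, the alpha-1 chain of type 11 collagen, a close relative of type 5 known from cartilage (ENSMUSG00000027966, chr3:114030540-114220718), was at 5.14 to 9.28 CPM in naive brains (median 5.90). In EAE, Col11a1 was at 6.12 to 27.3 (median 12.3) in the untreated, 9.82 to 20.5 (median 12.3) in the vehicle and 10.9 to 18.6 (median 13.5) in the farnesol group. Vehicle and farnesol EAE did not overlap with naive, whereas 6 of 9 untreated EAE libraries exceeded the highest naive library, which was naive replicate 4, a library low in cerebellar transcripts. Its changes were 1.06 ± 0.20, 1.00 ± 0.20 and 1.08 ± 0.20 (adjusted p = 0.000204, 0.000263 and 8.66e-05). Col11a2, the second chain of type 11, rose by 0.46 ± 0.12, 0.34 ± 0.12 and 0.37 ± 0.12, with overlapping libraries, and its vehicle EAE call was lost without vehicle EAE replicate 6 or 8 or naive replicate 6. Col27a1 (ENSMUSG00000045672, chr4:63214004-63334991) and Col24a1 (ENSMUSG00000028197, chr3:145292472-145552011) encode fibrillar collagens with short interruptions in the helix. Col27a1 was at 6.17 to 10.3 CPM in naive brains (median 8.59). In EAE, Col27a1 was at 10.8 to 28.5 (median 17.1) in the untreated, 16.6 to 26.5 (median 20.2) in the vehicle and 9.85 to 26.2 (median 17.4) in the farnesol group. Untreated and vehicle EAE lay wholly above naive, as did 9 of 10 farnesol EAE libraries, with changes of 0.97 ± 0.16, 1.16 ± 0.16 and 0.93 ± 0.15 (adjusted p = 2.63e-05, 1.02e-06 and 2.28e-05). Col24a1 was at 1.43 to 4.15 CPM in naive brains (median 1.95). In EAE, Col24a1 was at 2.81 to 7.37 (median 4.35) in the untreated, 2.42 to 6.74 (median 4.61) in the vehicle and 3.27 to 9.28 (median 4.19) in the farnesol group. All 3 EAE groups overlapped with naive, 5 libraries of each lay above the highest naive library, and the changes were 0.96 ± 0.24, 0.95 ± 0.24 and 0.99 ± 0.23 (adjusted p = 0.00288, 0.00234 and 0.00136).

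The genes of the abundant fibril formers gave other values. Col1a1 and Col1a2 encode the chains of type 1 collagen, the main protein of bone, skin and meningeal fibrils. Col1a1 was at 13.5 to 24.5 CPM in naive brains (median 15.96). In EAE, Col1a1 was at 15.3 to 27.4 (median 19.6) in the untreated, 8.62 to 20.02 (median 17.3) in the vehicle and 12.8 to 29.8 (median 15.2) in the farnesol group. The 4 groups overlapped, with changes of 0.17, -0.11 and -0.08 (adjusted p = 0.456, 0.638 and 0.719). Col1a2 did not pass, with changes of 0.11, 0.04 and -0.06, and its 95% interval, taken from the SE, ran from -0.26 to 0.14 in farnesol EAE. Col3a1, whose product type 3 collagen is found with type 1 in vessel walls, was at 3.95 to 6.19 CPM in naive brains (median 5.46). In EAE, Col3a1 was at 4.88 to 15.95 (median 7.70) in the untreated, 2.81 to 10.6 (median 7.71) in the vehicle and 2.82 to 9.17 (median 5.35) in the farnesol group. Its highest library was untreated EAE replicate 6, the groups overlapped, and its changes of 0.55 ± 0.23, 0.31 ± 0.23 and 0.02 ± 0.22 did not pass (adjusted p = 0.0716, 0.316 and 0.962). Col2a1, the main chain of cartilage, had negative changes of -0.33, -0.18 and -0.22 that did not pass either (adjusted p = 0.141, 0.431 and 0.305).

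**Figure D2:**
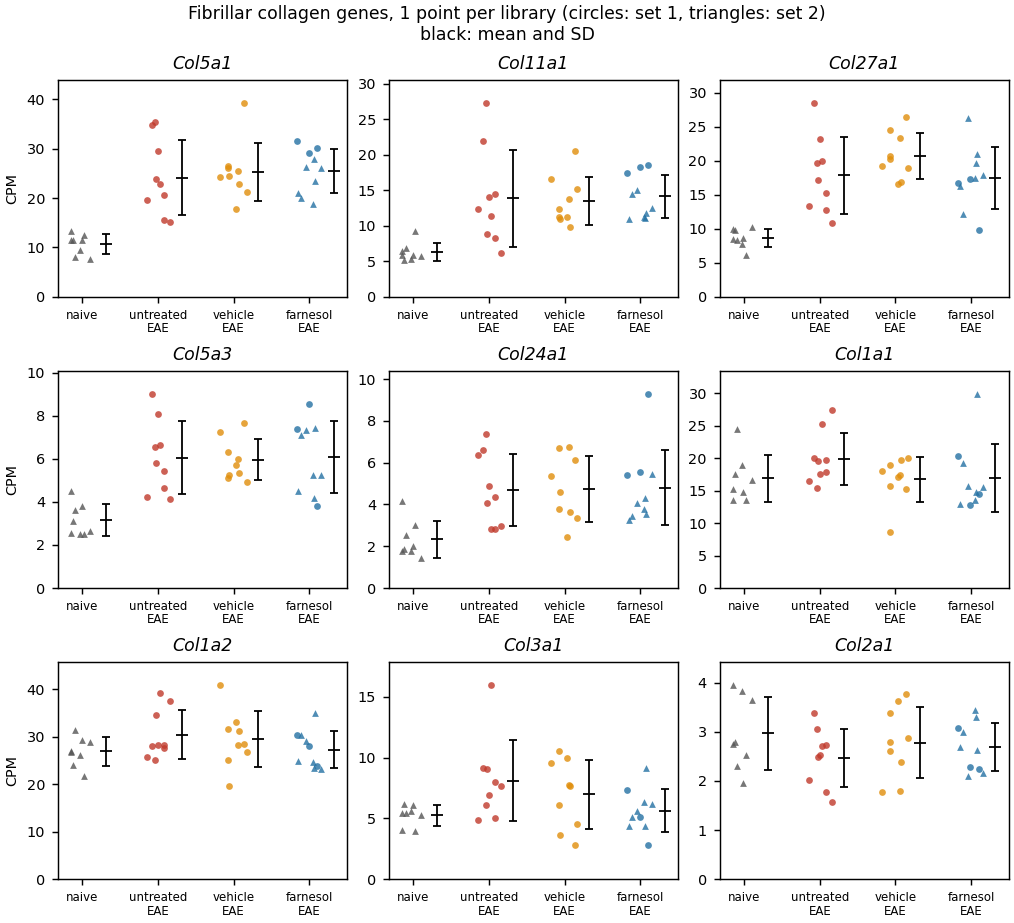
CPM of 9 fibrillar collagen genes by group, 1 point per library (circles for set 1, triangles for set 2), with the mean and SD in black. All EAE points of Col5a1 lie above its 8 naive points, while the groups of Col1a1, Col1a2, Col3a1 and Col2a1 overlap.

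The 250 bases before the RefSeq start (GRCm38.p6) of 3 fibrillar genes that rose and of Col3a1, which did not pass, are shown as examples of the starts of fibrillar genes. Capitals mark the letters of a GC box (GGGCGG), of a box known by its own letters (CCAAT) and of a TATA box (TATAAA), on either strand. Each sequence is written in the direction of transcription. The windows are chr2:27886175-27886424 for Col5a1 (strand +), chr9:20815068-20815317 for Col5a3 (strand -), chr3:114030290-114030539 for Col11a1 (strand +) and chr1:45311288-45311537 for Col3a1 (strand +).
Col5a1: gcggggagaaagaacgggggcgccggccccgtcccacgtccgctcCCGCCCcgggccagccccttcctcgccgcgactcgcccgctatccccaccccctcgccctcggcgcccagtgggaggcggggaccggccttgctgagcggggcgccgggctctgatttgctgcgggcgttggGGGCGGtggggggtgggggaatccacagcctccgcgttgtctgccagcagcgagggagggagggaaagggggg
Col5a3: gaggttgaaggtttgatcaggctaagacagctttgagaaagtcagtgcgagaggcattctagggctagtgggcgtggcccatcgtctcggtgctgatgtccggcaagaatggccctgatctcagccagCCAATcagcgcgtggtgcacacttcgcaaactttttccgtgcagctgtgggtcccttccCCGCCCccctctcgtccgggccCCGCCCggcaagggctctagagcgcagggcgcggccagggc
Col11a1: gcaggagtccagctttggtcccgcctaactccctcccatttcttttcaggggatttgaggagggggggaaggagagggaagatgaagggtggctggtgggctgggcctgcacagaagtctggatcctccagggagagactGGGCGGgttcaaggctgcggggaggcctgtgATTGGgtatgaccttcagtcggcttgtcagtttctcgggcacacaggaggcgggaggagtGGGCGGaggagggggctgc
Col3a1: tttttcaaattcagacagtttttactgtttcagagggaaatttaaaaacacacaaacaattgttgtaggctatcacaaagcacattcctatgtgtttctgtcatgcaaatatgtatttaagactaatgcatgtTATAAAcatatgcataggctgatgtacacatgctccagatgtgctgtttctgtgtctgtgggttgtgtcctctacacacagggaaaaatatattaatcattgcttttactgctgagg
The windows of Col5a1, Col5a3 and Col11a1 each held 2 GC boxes and no TATA box, and were 76.4, 62.8 and 62.4% G or C. That of Col3a1 held 1 TATA box and no GC box and was 35.2% G or C. The letters did not divide the fibrillar members that rose from those that did not pass. Of the other fibrillar genes with a window, Col24a1 rose and held no GC box, Col27a1 rose and held 1, and Col11a2 rose and held 2 with 1 TATA box. Col1a2, which did not pass, held 2 GC boxes and no TATA box. The RefSeq starts of Col27a1, Col11a2 and Col1a2 lay 1408, 299 and 804 bases from their GENCODE starts, and the Col1a2 window overlapped annotated exons of Col1a2. Windows were found for 34 of the 43 members, and 21 of these (61.8%) held a GC box, 12 (35.3%) a CCAAT box, 4 (11.8%) a TATA box and 1 (2.94%) the AP-1 letters TGANTCA. Among all 32851 windows of the same length the shares were 32.7, 33.8, 12.4 and 6.75%, with a median of 52.4% G or C. Some genes have more than 1 of these windows, and they were not limited to expressed or protein-coding genes. Each member gave only the window nearest its GENCODE start, so the 2 sets of windows are not alike. A match describes letters only, and no factor's binding was measured.

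Of the 6 type IV collagen genes, Col4a1, Col4a2 and Col4a4 rose in all 3 comparisons. The widely expressed pair is Col4a1 (ENSMUSG00000031502, chr8:11198423-11312826) and Col4a2 (ENSMUSG00000031503, chr8:11312805-11449287), whose chains form the common basement membrane trimer of vessels. Col4a1 was at 37.4 to 44.7 CPM in naive brains (median 41.4). In EAE, Col4a1 was at 53.5 to 69.8 (median 61.1) in the untreated, 47.2 to 62.1 (median 59.8) in the vehicle and 43.1 to 67.4 (median 52.0) in the farnesol group. All untreated and vehicle EAE libraries and 9 of 10 farnesol EAE libraries were above the highest naive library, with changes of 0.51 ± 0.07, 0.36 ± 0.07 and 0.27 ± 0.07 (adjusted p = 3.50e-06, 0.000228 and 0.00317). Col4a2 was at 38.0 to 44.7 CPM in naive brains (median 38.8). In EAE, Col4a2 was at 46.7 to 78.0 (median 57.2) in the untreated, 50.6 to 59.0 (median 54.9) in the vehicle and 47.7 to 77.3 (median 52.3) in the farnesol group. All 28 EAE libraries exceeded all 8 naive libraries, and the changes were 0.54 ± 0.09, 0.39 ± 0.09 and 0.40 ± 0.08 (adjusted p = 1.74e-05, 0.000678 and 0.000346). These are smaller changes than those of Col5a1, on genes with naive levels of 5.52 and 5.98 CPM per kb of exon against 1.26 for Col5a1. With the term for library set, Col4a1 changed by 0.21 in untreated and 0.06 in vehicle EAE, and Col4a2 by 0.19 and 0.03. None of these passed, nor did those of Col5a1 (0.75 and 0.80). In farnesol EAE that fit gave 0.17 for Col4a1 (adjusted p = 0.0557, edgeR) and 0.29 for Col4a2 (adjusted p = 0.00806, edgeR).

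Col4a3 and Col4a4, known from the glomerular basement membrane of the kidney, were among the members of lowest level. Col4a4 (ENSMUSG00000067158, chr1:82448423-82586849) was at 0.641 to 1.73 CPM in naive brains (median 1.09). In EAE, Col4a4 was at 0.740 to 2.84 (median 1.97) in the untreated, 1.08 to 2.75 (median 2.14) in the vehicle and 0.907 to 2.77 (median 1.84) in the farnesol group. The groups overlapped, 5 of 9, 7 of 9 and 7 of 10 EAE libraries lay above the highest naive library, and the changes were 0.64 ± 0.22, 0.77 ± 0.22 and 0.73 ± 0.21 (adjusted p = 0.0285, 0.00656 and 0.00776). Leaving out untreated EAE replicate 6, untreated EAE replicate 9 or naive replicate 4 ended the untreated EAE call. Col4a3, counted at as few as 1 read in a library, had changes of 0.59, 0.57 and 0.62 that did not pass, and Col4a5 and Col4a6, the X-linked pair, had changes of 0.23, 0.27 and 0.18 and of 0.25, 0.36 and 0.25 that did not pass.

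The multiplexins are basement membrane proteoglycans whose ends can be released as endostatin-like fragments. Col15a1 (ENSMUSG00000028339, chr4:47208161-47313167) was at 6.48 to 9.25 CPM in naive brains (median 7.90). In EAE, Col15a1 was at 7.35 to 14.4 (median 9.44) in the untreated, 9.08 to 11.7 (median 10.3) in the vehicle and 8.39 to 12.99 (median 10.1) in the farnesol group. Its groups overlapped, and its changes were 0.36 ± 0.10, 0.30 ± 0.10 and 0.30 ± 0.10 (adjusted p = 0.00626, 0.0190 and 0.0133). Col18a1 (ENSMUSG00000001435, chr10:77052178-77166548) was at 7.30 to 26.1 CPM in naive brains (median 23.4). In EAE, Col18a1 was at 14.05 to 38.1 (median 24.1) in the untreated, 30.2 to 36.6 (median 32.4) in the vehicle and 8.97 to 43.1 (median 31.0) in the farnesol group. Its lowest libraries in the naive, untreated EAE and farnesol EAE groups were the 3 libraries low in cerebellar transcripts, and vehicle EAE, which has no such library, lay wholly above naive. Its change passed in vehicle EAE (0.54 ± 0.20, adjusted p = 0.0389) and not in untreated EAE (0.32 ± 0.20, adjusted p = 0.268) or farnesol EAE (0.36 ± 0.20, adjusted p = 0.170). Leaving out any 1 of vehicle EAE replicates 3, 6 and 8 or naive replicates 1, 2 and 4 ended the vehicle EAE call, and leaving out farnesol EAE replicate 2 brought the farnesol EAE change past the threshold (0.46, adjusted p = 0.0357).

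**Figure D3:**
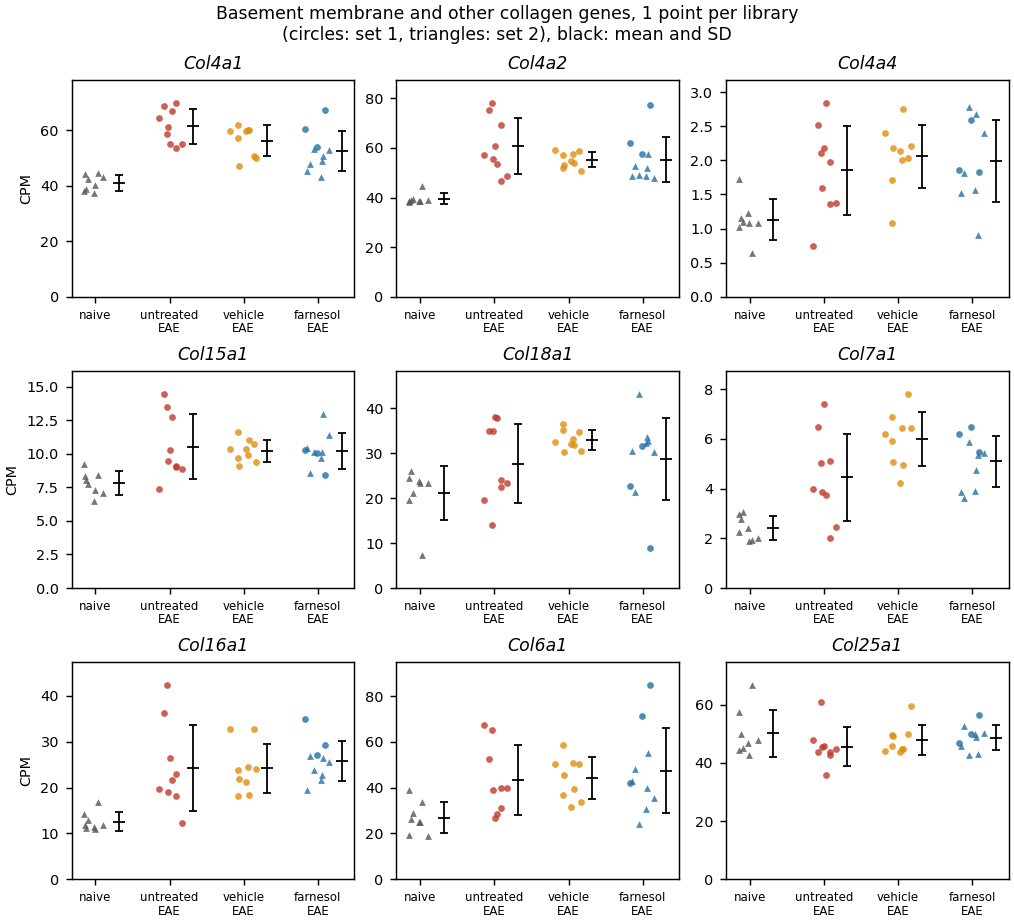
CPM of 9 basement membrane and other collagen genes by group, 1 point per library (circles for set 1, triangles for set 2), with the mean and SD in black. All EAE points of Col4a2 lie above its naive points, and Col18a1 has 1 low point in each of the naive and farnesol EAE groups (7.30 and 8.97 CPM).

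The type IV genes lie in 3 head-to-head pairs, transcribed away from each other, and the sequences between the starts show how close the partners are. The annotated starts of Col4a1 and Col4a2 overlap by 22 bases (chr8:11312805-11312826, GRCm38, strand +), those of Col4a4 and Col4a3 are 71 bases apart (chr1:82586850-82586920, strand -, the direction of Col4a4), and those of Col4a6 and Col4a5 are 1308 bases apart. Capitals again mark a GC box.
Col4a1 and Col4a2 overlap: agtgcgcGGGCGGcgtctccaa
Col4a4 and Col4a3 gap: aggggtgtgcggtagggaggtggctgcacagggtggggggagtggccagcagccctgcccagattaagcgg
The overlap of Col4a1 and Col4a2 held 1 GC box, and the gap of Col4a4 and Col4a3 held none of the 4 motifs searched. Per kb of exon, the median ratio of Col4a1 to Col4a2 was 0.904 in naive brains and 0.974, 0.924 and 0.832 in untreated, vehicle and farnesol EAE, and the ranges of the 4 groups overlapped.

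Levels of partner chains were compared across the 28 EAE libraries, as log2(CPM + 0.5) with each group's mean removed, in 6 pairs with permutation p-values (100000 resamples, two-sided) adjusted over the 6. Col1a1 and Col1a2 gave r = 0.78 and rho = 0.74 (adjusted p = 3.00e-05 and 6.00e-05, permutation), from the smallest raw p that the resamples can give, 1e-05. Col6a1 and Col6a2, which encode chains of the same microfibril, gave r = 0.76 and rho = 0.74 (adjusted p = 3.00e-05 and 6.00e-05, permutation). Col4a1 and Col4a2 gave r = 0.61 and rho = 0.58 (adjusted p = 0.00114 and 0.00264, permutation), and Col1a1 and Col3a1 gave r = 0.59 and rho = 0.63 (adjusted p = 0.00147 and 0.000840, permutation). Col4a3 with Col4a4 (r = 0.35, rho = 0.24, adjusted p = 0.0876 and 0.211, permutation) and Col4a5 with Col4a6 (r = 0.28, rho = 0.35, adjusted p = 0.148 and 0.0842, permutation) did not pass. Without the 2 libraries farthest from the median, r was 0.67 for Col1a1 and Col1a2, 0.69 for Col6a1 and Col6a2, 0.46 for Col4a1 and Col4a2 and 0.47 for Col1a1 and Col3a1, all past the threshold. Within set 1 (21 libraries) r was 0.77, 0.69, 0.50 and 0.57 for these 4 pairs in the same order, and within set 2 (7 libraries) it was 0.86, 0.91, 0.17 and 0.76, where Col4a1 and Col4a2 and Col1a1 and Col3a1 did not pass by r (adjusted p = 0.737 and 0.126, exact permutation). By rho no pair passed within set 2, with 0.64 for Col1a1 and Col1a2 (adjusted p = 0.400, exact permutation) and 0.86 for Col6a1 and Col6a2 (adjusted p = 0.143, exact permutation).

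Of the 24 other members, Col7a1 and Col16a1 had the smallest p-values. Col7a1 encodes the anchoring fibril collagen that fastens the epidermis to the dermis (ENSMUSG00000025650, chr9:108953586-108984875), and was at 1.90 to 3.05 CPM in naive brains (median 2.32). In EAE, Col7a1 was at 2.02 to 7.42 (median 4.00) in the untreated, 4.24 to 7.79 (median 6.2004) in the vehicle and 3.63 to 6.48 (median 5.37) in the farnesol group. Vehicle and farnesol EAE lay wholly above naive and 7 of 9 untreated EAE libraries did, with changes of 0.81 ± 0.18, 1.21 ± 0.18 and 1.00 ± 0.18 (adjusted p = 0.00123, 5.44e-06 and 6.64e-05). Col16a1, a fibril-associated collagen (ENSMUSG00000040690, chr4:130047840-130099283), was at 10.96 to 16.7 CPM in naive brains (median 11.7). In EAE, Col16a1 was at 12.3 to 42.3 (median 21.6) in the untreated, 18.2 to 32.8 (median 23.7) in the vehicle and 19.5 to 35.0 (median 26.03) in the farnesol group. Again vehicle and farnesol EAE did not overlap with naive, 8 of 9 untreated EAE libraries lay above it, and the changes were 0.88 ± 0.16, 0.85 ± 0.16 and 0.96 ± 0.16 (adjusted p = 0.000112, 0.000116 and 1.90e-05).

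The fibril-associated genes Col19a1 and Col20a1 rose in all 3 comparisons as well. Col19a1, known from hippocampal interneurons (ENSMUSG00000026141, chr1:24261890-24587472), was at 5.74 to 9.86 CPM in naive brains (median 7.93). In EAE, Col19a1 was at 8.05 to 14.9 (median 12.2) in the untreated, 8.24 to 15.6 (median 11.6) in the vehicle and 8.66 to 16.2 (median 11.8) in the farnesol group. Its groups overlapped, with changes of 0.58 ± 0.14, 0.51 ± 0.14 and 0.59 ± 0.14 (adjusted p = 0.00260, 0.00602 and 0.00139). Col20a1 (ENSMUSG00000016356, chr2:180986535-181018363), which shares 79 bases of exon (1.54%) with BX649560.1 on the same strand, so that some of its reads may be that gene's, was at 3.19 to 5.28 CPM in naive brains (median 4.22). In EAE, Col20a1 was at 4.92 to 6.66 (median 5.67) in the untreated, 4.46 to 6.93 (median 6.06) in the vehicle and 4.16 to 8.51 (median 6.48) in the farnesol group. Its groups overlapped too, and its changes were 0.36 ± 0.11, 0.36 ± 0.11 and 0.54 ± 0.11 (adjusted p = 0.0181, 0.0148 and 0.000315). Col12a1, which coats type 1 fibrils, passed in untreated EAE alone (0.29 ± 0.11, adjusted p = 0.0413), and its changes were 0.25 and 0.18 in vehicle and farnesol EAE. Its untreated EAE call was lost without any 1 of untreated EAE replicates 1, 2, 3 and 9 or of the naive replicates other than replicate 4. The other 5 fibril-associated members, Col9a1, Col9a2, Col9a3, Col14a1 and Col22a1, did not pass in any comparison, with changes between -0.34 (Col14a1 in farnesol EAE) and 0.63 (Col9a1 in vehicle EAE).

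Type 6 collagens form beaded microfibrils around cells. Col6a1 (ENSMUSG00000001119, chr10:76708792-76726168) was at 18.9 to 38.8 CPM in naive brains (median 25.6). In EAE, Col6a1 was at 26.9 to 67.5 (median 39.7) in the untreated, 31.5 to 58.7 (median 45.5) in the vehicle and 24.3 to 84.7 (median 42.6) in the farnesol group. The groups overlapped, and the changes were 0.63 ± 0.20, 0.63 ± 0.20 and 0.75 ± 0.20 (adjusted p = 0.0198, 0.0159 and 0.00362), where leaving out untreated EAE replicate 2 ended the untreated EAE call. Its partner Col6a2 did not pass, with changes of 0.26, 0.14 and 0.16. Per kb of exon the median ratio of Col6a1 to Col6a2 was 4.34 in naive brains and 5.47, 6.22 and 6.03 in untreated, vehicle and farnesol EAE, with overlapping ranges. The length used joins all annotated exons of a gene, 4380 bases for Col6a1 and 8326 for Col6a2, and the size of the ratio depends on it. Mean naive levels were 26.95 CPM for Col6a1 and 11.7 CPM for Col6a2. Col6a3, the longest chain of the common microfibril, rose in vehicle EAE (0.42 ± 0.14) and farnesol EAE (0.48 ± 0.14) and had a change of 0.35 ± 0.14 in untreated EAE (adjusted p = 0.0647). Col6a6 rose in the same comparisons, by 0.90 ± 0.29 and 0.89 ± 0.29, beside 0.66 ± 0.30 in untreated EAE (adjusted p = 0.101). In vehicle EAE the call of Col6a3 was lost without naive replicate 6, and that of Col6a6 without vehicle EAE replicate 9. Col6a4 rose in farnesol EAE (1.26 ± 0.34, adjusted p = 0.00437), where its libraries ran from 1.10 to 6.90 CPM against 0.408 to 2.52 in naive brains, and its changes in untreated and vehicle EAE were 0.62 ± 0.35 and 0.71 ± 0.35. Col6a5 did not pass, with changes of -0.0023, 0.22 and 0.48.

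Among the 4 transmembrane members, Col17a1, a hemidesmosome protein, rose in vehicle EAE (0.61 ± 0.22, adjusted p = 0.0327) and farnesol EAE (0.66 ± 0.22, adjusted p = 0.0175) and had a change of 0.07 ± 0.23 in untreated EAE. Leaving out vehicle EAE replicate 5 or any 1 of naive replicates 3, 4, 6 and 8 ended its vehicle EAE call. Col25a1, a collagen of neurons first purified from amyloid plaques, was at 42.8 to 66.7 CPM in naive brains (median 47.4). In EAE, Col25a1 was at 35.7 to 61.0 (median 44.6) in the untreated, 43.6 to 59.5 (median 45.7) in the vehicle and 42.6 to 56.4 (median 49.5) in the farnesol group. The groups overlapped, and its changes were -0.20 ± 0.08, -0.16 ± 0.08 and -0.12 ± 0.08 (adjusted p = 0.0624, 0.135 and 0.241). Col13a1, known from the neuromuscular junction, and Col23a1 did not pass, with changes of -0.15, 0.10 and -0.22 and of 0.08, 0.03 and 0.02. Col8a1 and Col8a2, network collagens of endothelium and cornea, had changes between -0.22 and 0.05, and Col26a1 and Col28a1 between -0.29 and 0.24, none of which passed.

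Levels between genes were compared per kb of annotated exon, with all annotated exons of a gene joined. This length can exceed that of the transcript made, so the order of genes is approximate. In naive brains Col6a1, Col4a2 and Col4a1 stood highest at 6.15, 5.98 and 5.52 CPM per kb, followed by Col9a3 (5.06), a cartilage chain that shares 6.07% of its exon bases with Tcfl5 on the other strand, Col25a1 (3.88), Col9a2 (3.12) and Col18a1 (3.01). Col1a1 was at 2.57 and Col1a2 at 2.17. The fibrillar genes that rose most were lower than Col1a1 and Col1a2, with 1.26 CPM per kb for Col5a1, 0.668 for Col27a1, 0.496 for Col11a1, 0.463 for Col5a3 and 0.305 for Col24a1. Level did not divide the fibrillar genes that rose from those that did not pass. Col3a1 and Col2a1, which did not pass, were at 0.535 and 0.321, and Col11a2 and Col5a2, which rose, were at 2.59 and 0.417. In untreated EAE Col5a1 was at 2.84 CPM per kb beside 3.03 for Col1a1 and 2.45 for Col1a2. At the other end, Col4a3 stood at 0.0711 and Col6a5 at 0.0904 CPM per kb in naive brains.

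Farnesol EAE and naive brains could also be compared inside set 2, with 7 and 8 libraries. There 20 members rose (14.9% of all genes in that fit), 19 of them among the 20 that rose in all libraries, and 0 fell (13.3% of all genes). Col5a1 rose by 1.07 on the log2 scale (adjusted p = 7.81e-07), Col27a1 by 1.03, Col11a1 by 0.90, Col7a1 by 0.88 and Col16a1 by 0.85. With all libraries these changes were 1.18, 0.93, 1.08, 1.00 and 0.96 in the same order. Of the basement membrane genes, Col4a1 changed by 0.18 (adjusted p = 0.0190) and Col4a2 by 0.29 (adjusted p = 0.000172), against 0.27 and 0.40 with all libraries. Col4a4 changed by 0.71 against 0.73, Col15a1 by 0.35 against 0.30 and Col18a1 by 0.52 against 0.36. Col18a1 passed inside set 2 (0.52, adjusted p = 0.0293), and Col6a3 did not (0.36, adjusted p = 0.05002). Untreated and vehicle EAE have no library in set 2, so the same comparison cannot be made for them.

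**Figure D4:**
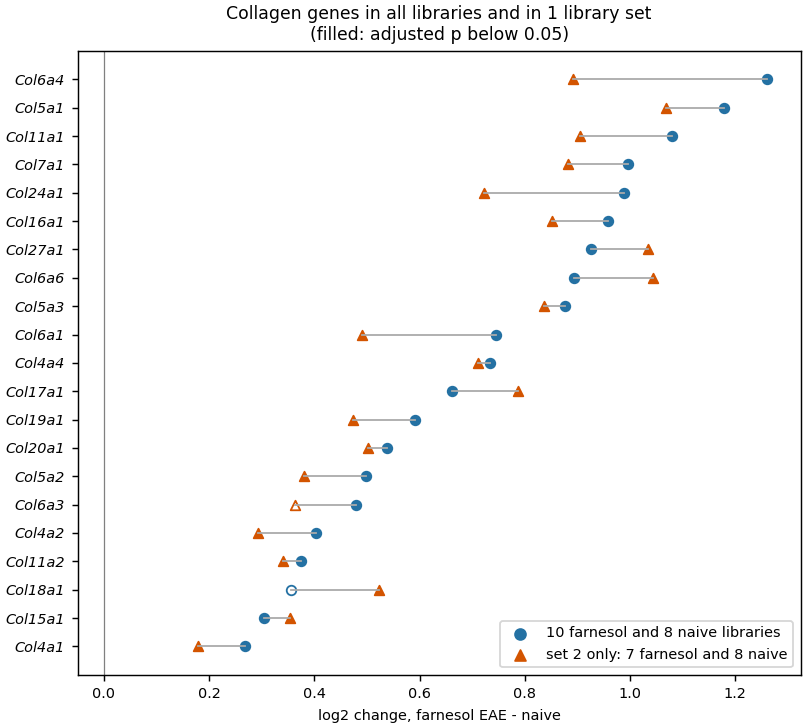
Log2 change in farnesol EAE against naive brain for the 21 collagen genes that passed with all libraries (circles) or inside set 2 (triangles), with filled points for an adjusted p below 0.05. All points lie above 0, and those of Col5a1 are at 1.18 and 1.07.

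Between the EAE groups few differences were found. Farnesol and vehicle EAE, a comparison that asks what farnesol adds to gavage of its oil, differed in 0 of 43 members by edgeR (0.0922% of all tested genes), with 1 member at an unadjusted p below 0.05 (Col13a1, -0.32 ± 0.14, adjusted p = 0.785) and 0 by DESeq2. The difference for Col5a1 was 0.02 with a 95% interval from -0.25 to 0.29, that for Col4a1 -0.09 (-0.22 to 0.04), and that for Col4a2 0.02 (-0.14 to 0.17). The interval was wide for Col6a4, at 0.55 (-0.06 to 1.17), so a difference in this low gene could not be told from the spread between libraries. Farnesol EAE replicates 1 to 3 share set 1 with all 9 vehicle EAE libraries. The other 7 farnesol libraries are in set 2, which holds no vehicle EAE library. Within set 1 the count was also 0 of 43. With 3 farnesol libraries, and without the share of all genes in that fit, this count adds little to the comparison.

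Vehicle and untreated EAE, which differ by the oil gavage, also differed in 0 of 43 members by edgeR (0.0217% of all tested genes) and 0 by DESeq2. Unadjusted p was below 0.05 for 3 members, and the differences of Col17a1 (0.54 ± 0.21, adjusted p = 0.467) and Col7a1 (0.41 ± 0.17, adjusted p = 0.505) were positive while that of Col4a1 (-0.15 ± 0.07, adjusted p = 0.555) was negative.

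Farnesol and untreated EAE, which differ by both gavage and farnesol, differed in 1 of 43 members (1.87% of all tested genes), Col4a1, which was lower in farnesol EAE, with a difference of -0.24 ± 0.07 (adjusted p = 0.0484, edgeR). Its libraries, 43.1 to 67.4 CPM in farnesol EAE and 53.5 to 69.8 in untreated EAE, overlapped. Farnesol EAE replicates 1 to 3, in set 1, held 54.2, 67.4 and 60.5 CPM, and replicates 4 to 10, in set 2, held 43.1 to 53.4 CPM. Within set 1 the difference was -0.04 (adjusted p = 0.877), which was not past the threshold. Leaving out 1 of the 19 libraries compared gave differences of -0.29 to -0.21, and the adjusted p was then above 0.05 for each library other than untreated EAE replicates 3, 4 and 7 and farnesol EAE replicates 2 and 3. Unadjusted p was below 0.05 for 5 members in all, of which 2 had a negative difference, Col4a1 and Col3a1 (-0.53 ± 0.21, adjusted p = 0.205). The positive ones were Col17a1 (0.60 ± 0.21, adjusted p = 0.135), Col6a4 (0.65 ± 0.31, adjusted p = 0.338) and Col6a5 (0.49 ± 0.22, adjusted p = 0.294), none of which passed after adjustment. Col4a2 did not pass either, at -0.14 ± 0.08 (adjusted p = 0.433).

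Genes that act on collagens were counted in lists written by function, here and in the next paragraphs. Of all tested genes, 13.6, 16.3 and 17.9% rose and 11.3, 15.2 and 16.3% fell in untreated, vehicle and farnesol EAE against naive. No list was tested as a whole against these shares. Of 18 genes of collagen folding and modification in the endoplasmic reticulum, 7 rose in untreated, 5 in vehicle and 6 in farnesol EAE and 0 fell, with median changes of 0.18, 0.02 and -0.03. P3h3, a prolyl 3-hydroxylase family member, had means of 19.6 CPM in naive brains and 31.4, 34.1 and 29.6 in the EAE groups (in the order untreated, vehicle, farnesol, as below) and changes of 0.61 ± 0.09, 0.71 ± 0.09 and 0.52 ± 0.08. Ppib, a proline isomerase of collagen folding, changed by 0.37 ± 0.06, 0.42 ± 0.06 and 0.43 ± 0.06, and Plod3, a lysyl hydroxylase, by 0.31 ± 0.07, 0.19 ± 0.07 and 0.19 ± 0.06. Colgalt1, which adds galactose to hydroxylysine, changed by 0.23 ± 0.05, 0.20 ± 0.05 and 0.26 ± 0.05, all past the threshold. P4ha1, a prolyl 4-hydroxylase subunit, and Serpinh1, the collagen chaperone Hsp47, were lower in farnesol than in untreated EAE. The differences were -0.32 ± 0.07 (adjusted p = 0.00759, edgeR) and -0.31 ± 0.08 (adjusted p = 0.0412, edgeR). These were 2 of the 18 genes, where 1.87% of all tested genes differed. Farnesol and untreated EAE also differ in gavage and in library set, with 7 of 10 farnesol libraries in set 2 and all untreated libraries in set 1. Which of these goes with the 2 differences cannot be told from these values. Between farnesol and vehicle EAE, 0 of the 18 genes differed (0.0922% of all tested genes).

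Of 12 genes of procollagen processing and crosslinking, 1, 1 and 2 rose and 0, 1 and 1 fell. Bmp1, the protease that removes the C-terminal propeptide of fibrillar procollagens, had means of 54.9 CPM in naive brains and 92.7, 108 and 96.3 in the EAE groups and rose by 0.69 ± 0.10, 0.88 ± 0.10 and 0.73 ± 0.10. Adamts14, an N-propeptide protease, rose in farnesol EAE (0.94 ± 0.35), and Loxl1, a crosslinking oxidase, fell in vehicle EAE (-0.47 ± 0.12) and farnesol EAE (-0.53 ± 0.11). Of 12 tested genes of collagen degradation, 4 rose and 1 fell in each comparison. Those that rose were Mmp8, a neutrophil collagenase, with means of 0.0862 CPM in naive brains and 1.04, 1.79 and 1.65 in the EAE groups, Mmp9, a gelatinase, which rose by 0.94 ± 0.20, 1.07 ± 0.20 and 0.93 ± 0.20, Timp1, a protease inhibitor, which rose by 1.43 ± 0.46, 1.45 ± 0.46 and 1.44 ± 0.45, and the macrophage elastase Mmp12. Mmp12 was at 0 in all naive libraries and had means of 0.549, 0.957 and 0.453 CPM in the EAE groups. It had enough reads to be tested only through its EAE libraries, so it could not have fallen. Mmp8, near 0 in naive brains, also had enough reads mainly through EAE libraries. The count of 4 that rose is to be read with this limit. Mmp3 and Mmp13, the other genes of the 14 listed, had too few reads to be tested. Those that fell were inhibitors or a membrane protease, Timp3 in untreated EAE (-0.25 ± 0.06), Timp2 in vehicle EAE (-0.16 ± 0.06) and Mmp14 in farnesol EAE (-0.31 ± 0.12).

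Of 9 tested collagen receptors, 2 rose in each comparison, Itga10, an integrin chain (by 0.71 ± 0.18, 0.83 ± 0.18 and 0.85 ± 0.17), and Lair1, an inhibitory receptor of leukocytes (by 0.88 ± 0.24, 0.87 ± 0.24 and 0.81 ± 0.24). Ddr1, a receptor tyrosine kinase, fell by 0.21 ± 0.06, 0.17 ± 0.06 and 0.20 ± 0.06, and Adgrg1, an adhesion receptor that binds type 3 collagen, fell in vehicle EAE by 0.16 ± 0.05 and in farnesol EAE by 0.27 ± 0.05. Of 15 other basement membrane genes, 3 rose in each comparison, namely Agrn (0.40 ± 0.07, 0.35 ± 0.07 and 0.41 ± 0.07) and Hspg2 (0.46 ± 0.11, 0.48 ± 0.11 and 0.52 ± 0.11), which encode heparan sulfate proteoglycans, and Lama5 (0.30 ± 0.11, 0.40 ± 0.11 and 0.55 ± 0.11), a laminin chain of vessels. Lama2, another laminin chain, fell by 0.24 ± 0.09, 0.26 ± 0.09 and 0.25 ± 0.09, and Lamc3 fell in vehicle EAE by 0.20 ± 0.08. Of 13 fibril-binding genes 1 rose in each comparison, the fibronectin gene Fn1 (0.46 ± 0.11, 0.51 ± 0.11 and 0.52 ± 0.11), and 1, 2 and 4 fell, among them Fmod, a small proteoglycan of collagen fibrils, in vehicle EAE (-0.41 ± 0.10) and farnesol EAE (-0.52 ± 0.10). Of 16 genes of TGF-beta signalling, a pathway known to induce collagens, 2, 2 and 3 rose and 2, 4 and 3 fell. Tgfbi, a secreted target, rose by 1.06 ± 0.33, 1.46 ± 0.33 and 1.31 ± 0.33, the receptor gene Tgfbr2 rose by 0.53 ± 0.14, 0.42 ± 0.14 and 0.36 ± 0.14, and Smad2, a signal transducer, fell by 0.15 ± 0.06, 0.26 ± 0.06 and 0.26 ± 0.05.

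The brain cells known to make collagens were followed through marker genes. Beside these counts, 13.6, 16.3 and 17.9% of all tested genes rose and 11.3, 15.2 and 16.3% fell in untreated, vehicle and farnesol EAE. Of 12 fibroblast and leptomeningeal markers, 1 rose (Mgp) and 3, 5 and 8 fell in untreated, vehicle and farnesol EAE, with median changes of -0.22, -0.21 and -0.36, and their levels summed to 174 to 205 CPM in naive brains and 164 to 205, 142 to 219 and 159 to 194 in the EAE groups. Of 9 pericyte markers, 0 rose and 3, 2 and 2 fell, with sums of 273 to 315 CPM in naive brains and 244 to 299, 259 to 315 and 266 to 307 in the EAE groups. Of 7 smooth muscle markers, 0 rose and 1, 0 and 1 fell, and of 10 endothelial markers, 2, 2 and 3 rose and 3, 2 and 2 fell, with endothelial sums of 291 to 345 CPM in naive brains and 287 to 395, 288 to 397 and 322 to 406 in the EAE groups. Of 6 astrocyte markers, 1 rose in each comparison (Gfap) and 1, 0 and 3 fell. All 6 myeloid markers rose in untreated EAE and 5 in vehicle and farnesol EAE, with median changes of 1.66, 1.46 and 1.48 and sums of 109 to 124 CPM in naive brains and 146 to 421, 136 to 724 and 144 to 483 in the EAE groups. Of 8 choroid plexus markers, 0 rose and 1, 0 and 1 fell, and cartilage and bone markers, of which 4 of 7 could be tested, gave 0 that rose and 2 that fell (Alpl and Sp7) in each comparison. Of 6 neuronal markers 3, 5 and 6 fell, with median changes of -0.17, -0.23 and -0.28 and sums of 5376 to 6022 CPM in naive brains and 5069.6 to 6005, 4760.3 to 5455 and 4738 to 5715 in the EAE groups, and of 5 myelin markers 1, 2 and 2 fell. Markers of the olfactory bulb and epithelium, 5 genes, fell in 2, 2 and 5 cases, with median changes of -1.003, -0.74 and -1.45 and sums of 18.6 to 80.4 CPM in naive brains and 14.1 to 46.3, 14.8 to 59.1 and 12.7 to 45.9 in the EAE groups. None of the neuronal, myelin and olfactory markers rose in these 3 comparisons, and none of 10 cerebellar markers passed. No marker of these lists was at 0 in most libraries. In untreated EAE 1 of 3 tested skeletal muscle markers (Myh4) and 1 of 4 tested pituitary markers (Pomc) rose, and none of either list passed in the other two comparisons. How far these cell types contribute to the changes of the collagen genes was not tested.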

How the data were processed

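The deposited values are raw read counts in 1 table, whose 54532 rows are Ensembl genes and whose columns are the 36 libraries. RNA was taken from whole brain and libraries were made with a NEBNext kit, per the labels' protocols. Reads were mapped with STAR 2.5 to mm10, per the submitters' processing notes. The tool that counted reads and its annotation are not given in the sources used, nor is strand, so reads from a gene and an antisense partner cannot be told apart. Symbols, positions and exon lengths came from GENCODE M21 (GRCm38) by identifier, which named 54495 identifiers. Promoter windows came from RefSeq (GRCm38.p6).

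Low genes were left out by edgeR 4.0.16 (filterByExpr, minimum count 10, minimum total 15; R 4.3.3). Libraries were scaled by TMM factors (0.94 to 1.04), and the 36 libraries entered 1 quasi-likelihood fit with group means as its terms. In each of the 6 comparisons, p-values of the 18438 genes were adjusted together (Benjamini-Hochberg), with a threshold of 0.05 and no minimum fold. The fit was tested on simulated counts with known changes between farnesol and vehicle EAE, in 50 genes for each size of change. It recovered 46, 64, 80 and 98% of changes of 1.25, 1.5, 2 and 4 fold, with 7 false calls among 18226 genes. Small changes between these groups can thus be missed. CPM levels used the library total. DESeq2 1.42.0, other size factors, no filter, fits of 2 groups, a replicate block, a term for library set, 1 set only, and leaving out libraries were alternatives.

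The members, the function lists and the marker lists were chosen with earlier results of these data known. All members are named. Values by group are given for the 5 members of smallest p in each class, for members changed between EAE groups and, chosen after their values were seen, for Col1a1, Col3a1 and Col25a1. Replicate numbers name samples within a group and were not used as a block in the reported fit.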

Additional observations from a re-analysis of the deposited data

Results flagged for a closer look

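Some libraries lay apart from the rest of their group for a collagen gene, with a gap to the next library larger than Dixon's 95% critical value for the group's size. This was so for 13 of 172 values (43 genes in 4 groups), and chance alone gives about 1 in 20. Of these, 7 were in the 3 libraries low in cerebellar transcripts. Naive replicate 4 was the highest naive library for Col4a2 (44.7 CPM, next 39.6), Col11a1 (9.28 CPM, next 6.84) and Col12a1 (14.95 CPM, next 11.2), and the lowest for Col18a1 (7.30 CPM, next 19.6). Farnesol EAE replicate 2 was the highest of its group for Col4a2 (77.3 CPM, next 62.0) and Col24a1 (9.28 CPM, next 5.55), and untreated EAE replicate 3 was the highest of its group for Col25a1 (61.0 CPM, next 48.0). Among the other libraries, vehicle EAE replicate 7 was the lowest for Col1a1 (8.62 CPM, next 15.3), and farnesol EAE replicate 4 was the highest for Col1a1 (29.8 CPM, next 20.3). Untreated EAE replicate 6 was the highest for Col3a1 (15.95 CPM, next 9.15). Within vehicle EAE the highest values were those of replicate 8 for Col5a1 (39.2 CPM, next 26.4), replicate 5 for Col25a1 (59.5 CPM, next 49.8) and replicate 6 for Col28a1 (1.55 CPM, next 0.780).

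Col4a1 was singled out because its change from naive differed between farnesol and untreated EAE by the test of that difference, -0.24 on the log2 scale.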

How the results depend on the processing

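DESeq2 and RLE size factors kept every called collagen gene of the 6 comparisons. A term for library set moved the counts of changed members to 1 in untreated EAE and 2 in vehicle EAE against naive, from 17 and 20, and turned the sign of Col6a1 in untreated EAE (-0.11) and vehicle EAE (-0.11) and of Col12a1 in untreated EAE (-0.072). This term rests on the contrast of 3 and 7 farnesol libraries. The 1 member changed between farnesol and untreated EAE, Col4a1, became 0 with the 2 groups fitted alone, with the replicate block, with the set term, within set 1 and without the libraries holding Sbp. With the replicate block, as a check of pairing, the other counts were 15, 19 and 21 against naive and 0 and 0 between EAE groups, and the numbers do not pair the samples: same-numbered libraries deviated together (r over 0.1) in 0, 0 and 1 of 8 pairs against naive and in 3, 4 and 2 of 9 between EAE groups (vehicle with untreated, farnesol with vehicle, farnesol with untreated). Leaving out 1 library at a time gave 15 to 18 changed members in untreated EAE, 17 to 22 in vehicle EAE and 20 to 21 in farnesol EAE against naive, 0 for vehicle against untreated and for farnesol against vehicle EAE, and 0 to 1 for farnesol against untreated EAE. For single genes, 1432 of 1545 alternative values kept their direction and their side of the threshold, 107 no longer passed, 3 newly passed and 3 changed sign. Without the 3 libraries low in cerebellar transcripts, 63 results (single genes and counts of changed members) were as before, 2 no longer passed and 1 newly passed. The correlation of Col4a5 and Col4a6 was 0.62 within set 1, past the threshold, and -0.55 within set 2, and those of Col1a1 and Col3a1 (0.76) and Col4a1 and Col4a2 (0.17) did not pass within set 2, which has 7 libraries and where no pair passed by rho. Where not shown by the setting itself, the cause was not tested. Members at or above 1 CPM numbered 41. Members counted at 1 to 50 reads in their lowest library, such as Col4a3 and Col9a1, have wide errors at this depth.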
